A study of Mus musculus with 12 samples.

Results

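The comparison set tumourspheres of the mouse mammary cancer line LM1 against tumourspheres labelled LM1 Nfib KO. Its members were the 6 RNA-seq libraries that carry these labels, replicates 1 to 3 of each group, out of 12 libraries in the series, and they were chosen by label alone. LM1 is a cell line grown from a lung metastasis in a NOD/SCID mouse. It descends from HR1, a non-metastatic line from a mammary tumour of a mouse that carried a mutant PIK3CA transgene under the CAG promoter, which drives expression in most cell types. HR1 cells had been mutagenised with the piggyBac transposon before they were injected, so by their labels both groups share the transgene and the transposon. Neither was looked for in the reads. The knockout was made in LM1 with CRISPR-Cas9 and guides that cut the first exons of Nfib, and the cells were used as a pool of several clones. Both groups were grown in the same way, for 6 days in ultra-low attachment plates from 10000 cells per mL, without serum, where the growth factors EGF and bFGF were added to 20 ng per mL. No pool that had passed through editing with a control guide was analysed here, so the edit itself and everything else that separates the 2 cultures cannot be told apart.

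NFIB is a transcription factor of the nuclear factor I family, which binds DNA as a dimer at a palindrome made of a pair of short repeats and can raise or lower the genes it binds. It is known for roles in lung and brain development and in stem cells of the skin. A tumoursphere is a floating cluster grown from dissociated cells without attachment, where cells that cannot live without a substrate die. Genes of epithelial identity, basement membrane, protein synthesis and the cell cycle together describe what such a culture is made of and how it grows.

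Library totals ran from 29249075 to 34266053 counts in LM1 and from 34149423 to 36103692 counts in the libraries labelled knockout. Levels are given as CPM, counts scaled to library size with TMM factors (0.926 to 0.928 in LM1 and 1.08 in each library labelled knockout), as mean ± s.d. of 3 libraries, LM1 first. In these libraries 3 counts, taken as the floor, stood for 0.0772 to 0.111 CPM. Before any gene was compared, the libraries were compared with each other across genes. Pearson's r was 0.9907 to 0.9914 within LM1, 0.9934 to 0.9938 among those labelled LM1 Nfib KO, and 0.6977 to 0.7006 between the 2 groups. The libraries labelled LM1 Nfib KO lay as near to those labelled LM9 Nfib KO, made from another metastatic line, as to each other (r = 0.9931 to 0.994 over 9 pairs). One library labelled LM9, replicate 1, lay as near to the LM1 libraries (0.9912 to 0.9918) as these lay to each other. Whether the labels hold was not tested, and the immunoblots by which the study screened its knockout clones were not analysed here. If pools or labels had been exchanged, the differences below would compare other cultures than the labels say. Apart from the counts of Cdkn2a and a named alternative fit of all 12 libraries, no LM9 library enters the values below. The labels do not say that replicates were separate cultures, so p-values measure the spread between these libraries, which may be technical.

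Nfib, the targeted gene (ENSMUSG00000008575, chr4:82290173-82705750, minus strand, mm10), was examined first. It was at 199.8, 222 and 246 CPM in LM1 and at 244, 245 and 234 CPM in the libraries labelled knockout. The groups overlapped, and the log2 difference of 0.12 (SE 0.06) was not called (limma-voom, adjusted p = 0.0752; exact two-sided permutation p = 0.4, where 3 libraries against 3 cannot give less than 0.1). It was called higher with library totals in place of TMM factors (0.34), among genes with a mean of at least 5 CPM (0.13) and without LM1 replicate 3 (0.18). An edit that shifts the reading frame need not lower the mRNA, and the counts cover all exons, so this level does not check the label in either direction. The groups are therefore called LM1 and the libraries labelled knockout. Among the other NFI genes, Nfix fell from 213 ± 15 to 51.1 ± 2.61 CPM. Nfia fell from 59.5 ± 4.73 to 25.6 ± 0.457 CPM. Nfic rose from 310.3 ± 21.3 to 433 ± 11.9 CPM. Ero1l, the endoplasmic reticulum oxidase at the centre of the study, fell from 1168 ± 55.5 to 52.8 ± 1.22 CPM. Vegfa, the angiogenic growth factor, fell from 534 ± 4.97 to 76.5 ± 0.512 CPM.

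The groups differed at most genes. Of 17439 genes tested, 8195 (47.0%) were higher and 7390 (42.4%) were lower in the libraries labelled knockout (limma-voom, adjusted p under 0.05), 89.4% in either direction. Beyond a 2-fold change, 5194 genes (29.8%) were higher and 4378 (25.1%) were lower. The libraries of the 2 groups did not overlap at 15692 genes (90.0%). The median log2 fold change over all genes was 0.09 and the median absolute log2 fold change was 1.14. These shares are the background for every count below, where "rose" and "fell" mean that a gene passed the threshold. With library totals in place of TMM factors the median of all genes moved up by 0.219, so smaller changes than that depend on the scaling. Many genes were read in 1 group only. At or under 3 counts in every LM1 library and called higher were 1204 genes (6.90%), of which 905 were protein-coding and 209 reached a mean of 10 CPM. The reverse held for 418 genes (2.40%), of which 279 were protein-coding and 86 had reached 10 CPM in LM1. In bulk RNA, fewer cells of a type and less RNA per cell cannot be told apart, and this holds for each level below.

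**Figure D1:**
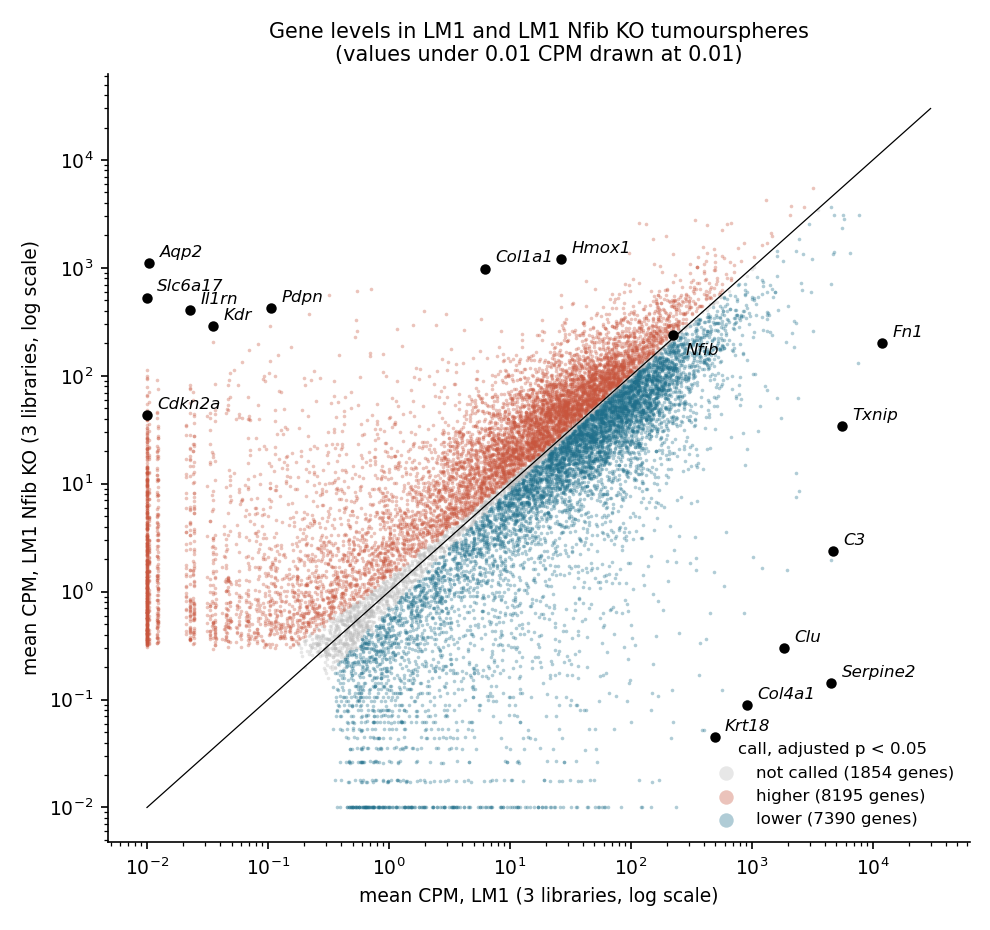
Mean CPM of each gene tested in LM1 (x axis) and in the libraries labelled LM1 Nfib KO (y axis), both on log scales, with genes called higher in red, lower in blue and not called in grey. Nfib sat on the diagonal, while columns of genes at the left edge and rows at the bottom edge were read in 1 group only.

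Aqp2, the water channel of the kidney collecting duct, had the largest rise (ENSMUSG00000023013, chr15:99579055-99584547, plus strand). It had 0, 1 and 0 counts in the LM1 libraries and 43382, 40540 and 41972 counts in those labelled knockout, which is 1117, 1089.9 and 1135 CPM. Slc6a17, a transporter of neutral amino acids known from synaptic vesicles, had no count in LM1 and reached 538, 521 and 533 CPM, at least 4792-fold higher than 3 counts in the shallowest LM1 library. Il1rn, the antagonist of the interleukin-1 receptor, was at 408 ± 6.2 CPM after 0 or 1 count per LM1 library. Kdr, a receptor for VEGF, was at 289 ± 3.01 CPM after at most 2 counts. Pdpn, the mucin-like surface protein podoplanin, rose from 0.107 ± 0.0677 to 426 ± 2.6 CPM. Bcat1, which transaminates branched-chain amino acids, had 1 count in each LM1 library and stood at 208, 209 and 205 CPM. Also without a count in LM1 were Moxd1 (113 ± 1.1 CPM, at least 1018-fold higher), Papss2, which makes the sulfate donor PAPS (99.9 ± 0.863 CPM, at least 902-fold), Ppfibp2 (95.6 ± 3.28 CPM, at least 863-fold), Serpinb9g, a granzyme-inhibitor type serpin (93.2 ± 3.74 CPM, at least 841-fold), Flrt2, an adhesion and guidance protein (79.5 ± 2.37 CPM, at least 717-fold), and Wnt5a (66.6 ± 0.846 CPM, at least 601-fold).

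Serpine2, an inhibitor of thrombin and plasminogen activators, had the largest fall (ENSMUSG00000026249, chr1:79794197-79861180, minus strand). It was at 4551, 4661 and 4363 CPM in LM1, and had 5, 5 and 6 counts in the libraries labelled knockout. Krt18, a keratin that fills the cytoskeleton of simple epithelia, stood at 505, 472 and 496 CPM and then had 0, 4 and 1 counts. Col4a1, a chain of basement membrane collagen, was at 942, 868 and 920.0 CPM and then had 2, 2 and 6 counts. Mgp, an inhibitor of calcification, was at 238 ± 4.53 CPM in LM1 and had 1 count in all libraries labelled knockout together. Without a count in any of them were Amigo2 (147 ± 3.49 CPM in LM1, at least 1809.6-fold lower), Scara3 (125 ± 5.53 CPM, at least 1537-fold) and Cyba, a subunit of NADPH oxidases (82.4 ± 8.61 CPM, at least 1016-fold). Cxadr, a junction protein and virus receptor, fell from 388 ± 27.5 to 0.0526 ± 0.0456 CPM. Gpa33, a surface antigen, fell from 122 ± 2.74 to 0.00858 ± 0.0149 CPM. The highest limma-voom adjusted p over the 24 genes with the largest changes in either direction was 1.66e-09, with log2 changes of at least 11.90 in size, and in each of them the groups were far apart in all libraries. Their order by fitted change depends on the offset of 0.5 counts where a group is near 0. Amigo2, Col4a1, Cxadr and Ppfibp2 overlap a gene on the other strand in the annotation.

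**Figure D2:**
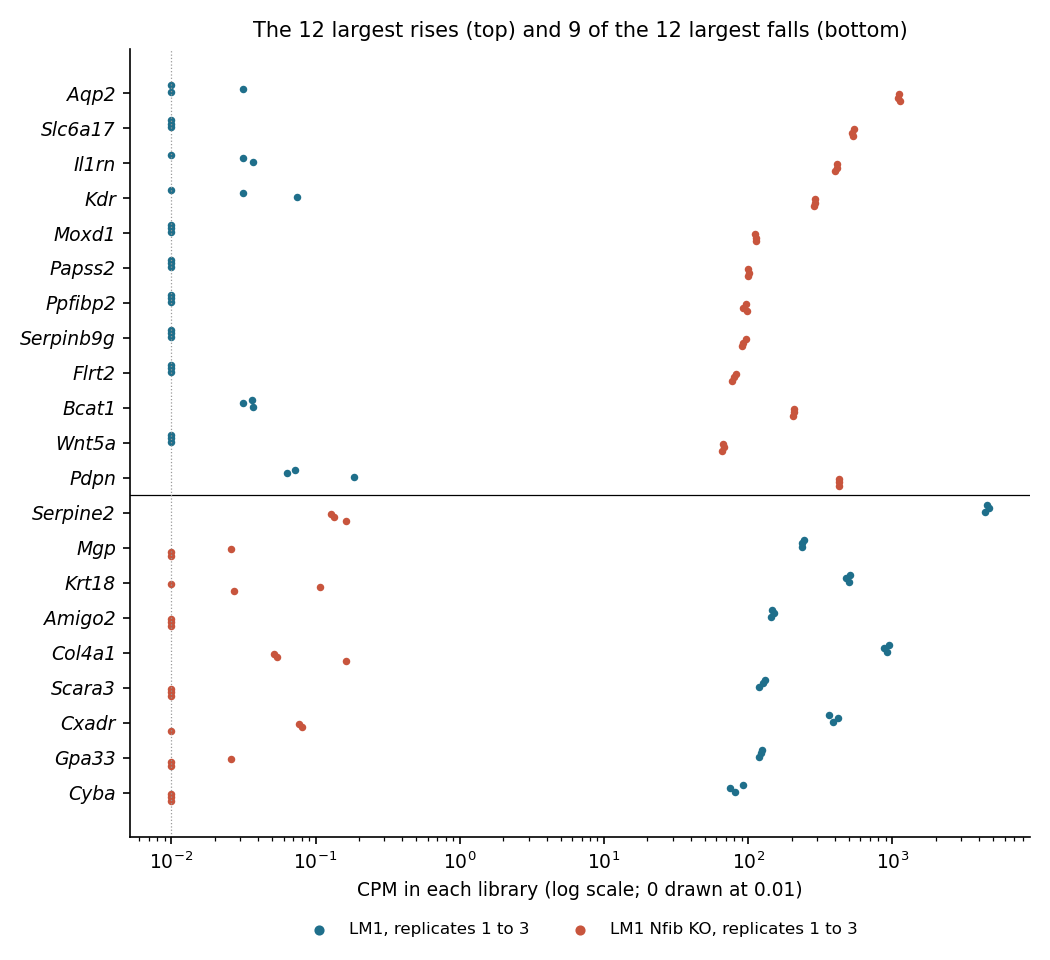
CPM in each of the 6 libraries (x axis, log scale, with 0 drawn at 0.01) for the 12 genes with the largest rises and 9 of those with the largest falls (y axis). Each gene has its LM1 libraries (blue) and its libraries labelled knockout (red) at opposite ends, under about 0.2 CPM at one and above 50 CPM at the other.

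The 250 bases before the RefSeq start (GRCm38.p6) of the genes at both ends are shown because the targeted gene encodes a factor that binds DNA, with the NFI motif, TTGGC on either strand, in capitals. Aqp2 (chr15:99578806-99579055, plus strand) and Serpine2 (chr1:79858666-79858915, minus strand) each hold it once, as does a promoter of Slc6a17 (chr3:107518019-107518268, minus strand), and Krt18 (chr15:102027966-102028215, plus strand) holds none. Another promoter of Slc6a17 (chr3:107500741-107500990, minus strand) also holds none and is not shown.
Aqp2: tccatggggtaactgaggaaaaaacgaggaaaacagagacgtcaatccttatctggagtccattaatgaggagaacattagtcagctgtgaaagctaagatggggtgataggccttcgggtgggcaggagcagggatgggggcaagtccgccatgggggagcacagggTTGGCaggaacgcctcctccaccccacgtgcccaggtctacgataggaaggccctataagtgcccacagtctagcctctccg
Slc6a17: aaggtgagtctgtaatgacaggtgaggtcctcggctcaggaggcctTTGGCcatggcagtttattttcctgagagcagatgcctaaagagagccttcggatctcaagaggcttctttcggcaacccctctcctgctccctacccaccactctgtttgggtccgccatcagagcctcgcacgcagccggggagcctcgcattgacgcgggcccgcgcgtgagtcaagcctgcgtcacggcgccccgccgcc
Serpine2: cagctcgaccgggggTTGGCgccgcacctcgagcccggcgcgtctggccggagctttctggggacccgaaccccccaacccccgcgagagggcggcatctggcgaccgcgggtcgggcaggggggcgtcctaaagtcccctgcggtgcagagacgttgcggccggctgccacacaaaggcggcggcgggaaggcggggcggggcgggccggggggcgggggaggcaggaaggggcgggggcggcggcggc
Krt18: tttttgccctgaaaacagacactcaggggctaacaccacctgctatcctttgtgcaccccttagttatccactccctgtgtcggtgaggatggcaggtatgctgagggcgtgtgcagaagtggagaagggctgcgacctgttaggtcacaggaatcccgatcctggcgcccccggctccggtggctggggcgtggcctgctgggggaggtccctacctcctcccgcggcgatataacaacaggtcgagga

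The motif TTGGC was common everywhere. It was found in 46.7% of all 32851 promoters of 300 bases, in 49.5% of those of genes called higher, in 50.9% of those of genes called lower and in 48.7% of those of genes not called. The palindrome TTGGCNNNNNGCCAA was found in 12 of the 32851 promoters, 3 of genes that rose and 2 of genes that fell. A match is a description of letters and not of binding, and 10840 of 17418 tested symbols had a promoter in the table.

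Markers of epithelial cells had the lowest median of the 91 lists with 5 or more members tested. Of the luminal and simple epithelial markers, 4 of 22 rose (4 beyond 2-fold) and 18 fell (18 beyond 2-fold), where 47.0% of all genes rose and 42.4% fell, with a median log2 change of -6.01, or -5.56 with members at or under 3 counts set to their bound. Summed over the list, the level was 2471 to 2639 CPM in LM1 and 63.9 to 66.7 CPM in the libraries labelled knockout. Krt8, the partner of Krt18 in simple epithelia, fell from 218 ± 9.27 to 0.124 ± 0.0855 CPM. Ehf, an epithelial Ets factor, fell from 224 ± 11.2 to 0.0616 ± 0.030 CPM. Cldn3, a tight junction protein, had no count in the libraries labelled knockout after 34.9 ± 6.08 CPM in LM1, at least 430.2-fold lower, and Cldn4 fell from 28 ± 1.65 to 0.0262 ± 0.0258 CPM. Cdh1, E-cadherin, was at 10.4, 12.7 and 11.7 CPM in LM1 and had 1, 0 and 0 counts in the libraries labelled knockout. Epcam, an adhesion molecule of epithelia, fell from 55.8 ± 2.25 to 0.568 ± 0.104 CPM. Gata3, a factor of luminal mammary cells, fell from 126 ± 3.41 to 7.41 ± 0.0821 CPM. The 4 members that rose included Esr1, the oestrogen receptor (from 9.94 ± 0.814 to 26.6 ± 0.417 CPM), Kit (from 0 to 7.7 ± 0.169 CPM) and Aldh1a3 (from 0.136 ± 0.0456 to 16 ± 1.03 CPM).

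Basal and myoepithelial markers did not move one way (6 of 11 rose and 5 fell). Trp63, the master factor of basal cells, fell from 17.5 ± 1.8 to 0.31 ± 0.0833 CPM. Itgb4, the integrin of hemidesmosomes, fell from 46.9 ± 1.51 to 0.768 ± 0.128 CPM, while Krt14 rose from 0.0597 ± 0.0778 to 6.96 ± 0.0944 CPM. Ngfr rose from 9.24 ± 0.522 to 99 ± 1.39 CPM. Keratins as a family split in the same way. Of the keratins, 11 of 16 rose and 5 fell, the falls being those of simple epithelia (Krt7, Krt8, Krt18, Krt19) and Krt13, whose call was lost in the fit of all 12 libraries, and the rises including keratins of stratified epithelia at low levels such as Krt6a (0 to 1.38 ± 0.10 CPM) and Krt16 (0.496 ± 0.0867 to 5.57 ± 0.579 CPM). The summed level of the 17 keratins in the files was 709 to 761 CPM in LM1 and 47.8 to 50.7 CPM in the libraries labelled knockout. The median of keratins minus that of all genes turned from 3.74 to -7.28 among genes with a mean of at least 5 CPM, and that of basal markers from 1.63 to -3.49. Krt20, a keratin of simple gut epithelium named after its values were seen, rose from 0.0351 ± 0.0371 to 3.14 ± 0.0956 CPM. Epidermal genes of the cornified envelope, looked at after their values were seen, were among the genes read in 1 group only. Crct1 rose from 0.0121 ± 0.0209 to 91.1 ± 2.88 CPM, Lce1g was at 29.9 ± 2.31 CPM after 0 counts in LM1, and Sprr1a was at 10.6 ± 0.738 CPM after 0 counts.

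Markers of other cell types also moved in both directions. Of the fibroblast and mesenchymal markers, 13 of 19 rose (11 beyond 2-fold) and 6 fell (4 beyond 2-fold), while their summed level was lower, with 17103 to 18421 CPM in LM1 and 9845 to 9884 CPM in the libraries labelled knockout. Prrx1, a mesenchymal homeobox factor, rose from 0.070 ± 0.0378 to 174 ± 7.72 CPM. Pdgfrb, a receptor of pericytes and fibroblasts, rose from 1.67 ± 0.0925 to 119 ± 0.135 CPM. Col1a1, the main chain of fibrous collagen, rose from 6.25 ± 0.18 to 982 ± 19.4 CPM. Pdgfra, another receptor of mesenchymal cells, was well read in both groups and rose from 206 ± 6.89 to 289 ± 8.68 CPM, and Fn1, fibronectin, fell from 11977 ± 635 to 200.04 ± 2.02 CPM. Among 10 endothelial markers 6 rose and 3 fell. Kdr and Cdh5 (0.0228 ± 0.0199 to 75.2 ± 1.26 CPM) rose, Pecam1 was at 0.321 ± 0.0903 and 0.444 ± 0.117 CPM without a call, and Eng fell from 81.9 ± 2.63 to 1.62 ± 0.329 CPM. The leukocyte list had 5 members in the files, and its other members, Ptprc (CD45) among them, were absent from the files. Every gene in the files had at least 8 counts in at least 3 of the 12 libraries, so the absent genes may have been hardly read. Csf1r and Coro1a rose, to 12.7 ± 0.647 and 3.1 ± 0.251 CPM, and Cd68, Cd14 and Lcp1 fell, the last from 95.5 ± 4.35 to 0.662 ± 0.103 CPM. Of 6 neuronal markers 5 rose, Ncam1, a neural adhesion molecule, reaching the highest level (24.8 ± 1.05 CPM), and Map2, a protein of microtubules, fell from 121 ± 9.89 to 14.7 ± 0.418 CPM. Of 5 adipocyte markers 2 rose and 3 fell, and Pparg, the factor that drives fat cell differentiation, fell from 7.36 ± 0.768 to 0.231 ± 0.172 CPM. The summed levels were 234 to 236 CPM in LM1 and 515 to 525 CPM in the libraries labelled knockout for the endothelial list, 613 to 629 CPM in LM1 and 136 to 142 CPM in the libraries labelled knockout for the leukocyte list and 109 to 128 CPM in LM1 and 62 to 63.4 CPM in the libraries labelled knockout for the neuronal list. Their part in the changes of other genes was not tested.

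Laminins and their partners in the basement membrane were mostly lower, and collagen IV chains went both ways. Of the laminins, nidogens and perlecan, 2 of 13 rose (2 beyond 2-fold) and 11 fell (11 beyond 2-fold), with a median log2 change of -2.35. Lama5 fell from 2414 ± 319 to 62.7 ± 1.09 CPM. Lamb1 fell from 1727 ± 3.67 to 40.5 ± 1.36 CPM. Lama4 fell from 139 ± 3.51 to 1.73 ± 0.0666 CPM. Agrn, agrin, fell from 1606 ± 62.7 to 62.4 ± 0.717 CPM. Lama3, a chain of the epithelial laminin, rose from 1.49 ± 0.0592 to 46.1 ± 0.374 CPM. Col4a1 and its head-to-head neighbour Col4a2 (571 ± 31.7 to 0.123 ± 0.0605 CPM) fell, as did Col18a1 (919 ± 65.5 to 21 ± 0.517 CPM), while Col4a5, another collagen IV chain, rose from 0.241 ± 0.0368 to 112 ± 3.73 CPM. Col4a3 and Col4a4, named after their values were seen, also rose, from 0 to 0.344 ± 0.0456 and 2.36 ± 0.256 CPM. Across the collagens, 16 of 29 rose and 13 fell, and the largest rise was that of Col6a3, from 0.54 ± 0.186 to 606 ± 5.92 CPM. Integrins that bind these matrices differed among themselves. Itga3, a laminin receptor chain, fell from 1122 ± 41.1 to 30.7 ± 1.13 CPM. Itga1, a collagen receptor chain, fell from 317 ± 14.3 to 6.69 ± 0.708 CPM. Itgb3 fell from 90.8 ± 3.36 to 3.26 ± 0.284 CPM, whereas Itgb1, the partner of Itga1 and Itga3, rose from 426 ± 16 to 2513 ± 65.9 CPM.

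Secreted matrix regulators held some of the most abundant transcripts of LM1. Spp1, osteopontin, fell from 7565 ± 255 to 133 ± 0.874 CPM and was at 7429, 7859.9 and 7407 CPM in the LM1 libraries. Thbs1, thrombospondin, fell from 1055 ± 5.91 to 104 ± 1.99 CPM. Ltbp2, a latent TGF-beta binding protein, fell from 1030.0 ± 48.9 to 2.1 ± 0.0475 CPM. Mmp9, a gelatinase, fell from 616 ± 22.9 to 3.58 ± 0.233 CPM. Rising members included Emilin1 (0.156 ± 0.152 to 187 ± 3.72 CPM), Ccdc80 (0.524 ± 0.199 to 229 ± 0.963 CPM) and Fbln5, an elastic fibre protein (0 to 48.4 ± 0.835 CPM), as well as Timp3, an inhibitor of metalloproteases (0.0524 ± 0.0908 to 114 ± 0.314 CPM). Of the serpins, 20 of 25 rose (19 beyond 2-fold) and 4 fell (3 beyond 2-fold), with a median of 3.98, or 3.53 with members at or under 3 counts set to their bound. Their summed level went the other way, with 5631 to 5889.7 CPM in LM1 and 2119 to 2134 CPM in the libraries labelled knockout, and Serpine2, described above, is a member and held most of it in LM1. Many of the rises lay in one cluster on chromosome 13, where Serpinb9c, Serpinb9e, Serpinb9f and Serpinb9g had 0 counts in every LM1 library and stood at 29.3 ± 0.666, 54.8 ± 0.841, 26.5 ± 0.598 and 93.2 ± 3.74 CPM. These paralogues are alike in sequence, and how reads were split among them is not stated. Of cadherins outside the protocadherin clusters, 18 of 26 rose and 7 fell, with a median of 3.61, or 2.21 with members at or under 3 counts set to their bound, and the rises included Celsr1 (0.332 ± 0.101 to 55.9 ± 1.55 CPM) and Pcdh19 (0 to 10.9 ± 1.06 CPM). Minus the median of all genes, their median was 3.52, and 6.02 among genes with a mean of at least 5 CPM. The clustered protocadherins, which share exons, were mostly lower by small amounts (1 of 27 rose (1 beyond 2-fold) and 21 fell (0 beyond 2-fold), median -0.32).

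Complement and antigen presentation genes were mostly lower, and interferon and cytokine genes went both ways. Of the complement and coagulation genes, 8 of 24 rose (6 beyond 2-fold) and 16 fell (14 beyond 2-fold). C3, the central complement component, was at 4697, 4705 and 4560.5 CPM in LM1 and at 2.39, 2.55 and 2.19 CPM in the libraries labelled knockout. C4b fell from 367 ± 10.3 to 0.168 ± 0.0946 CPM. Clu, clusterin, fell from 1837 ± 59.1 to 0.302 ± 0.062 CPM. The rises included Thbd, thrombomodulin (0.122 ± 0.106 to 155 ± 4.32 CPM), and Plaur, the urokinase receptor (32.6 ± 2.69 to 143 ± 3.17 CPM). Of the antigen presentation genes, 4 of 23 rose (3 beyond 2-fold) and 17 fell (13 beyond 2-fold). The class I heavy chains H2-D1 (3226 ± 179 to 259 ± 3.59 CPM) and H2-K1 (2245 ± 119 to 183 ± 2.69 CPM), their light chain B2m (4499.8 ± 185 to 711 ± 18.8 CPM) and Nlrc5, the activator of these genes (73.9 ± 5.66 to 1.35 ± 0.14 CPM), all fell, whereas Tap2, a chain of the peptide transporter, rose from 74 ± 2.43 to 219 ± 2.42 CPM and Tap1 was at 75.4 ± 3.82 and 78.5 ± 1.14 CPM without a call, though it was called higher by 0.28 with library totals and by 0.09 without LM1 replicate 1. Alike class I genes can share reads. Interferon response genes as a list did not lean to one side (20 of 42 rose and 18 fell, median 0.04). Oasl1 (12.5 ± 0.597 to 244 ± 4.83 CPM), Ifit1 (10.3 ± 1.5 to 102 ± 1.03 CPM) and Isg15 (29.3 ± 0.658 to 167 ± 3.61 CPM) rose, and Psmb9 (34.3 ± 0.461 to 5.7 ± 0.303 CPM) and Stat2, a transducer of interferon signals (140.0 ± 5.01 to 28.6 ± 1.22 CPM), fell. Of the interleukins, chemokines and their receptors, 30 of 71 rose (24 beyond 2-fold) and 35 fell (32 beyond 2-fold). Cxcl5, a neutrophil chemokine, fell from 857 ± 52.1 to 0.634 ± 0.224 CPM. Csf3, the granulocyte factor, fell from 36.2 ± 2.2 to 0.203 ± 0.0598 CPM. Tslp, an epithelial cytokine, fell from 75.3 ± 5.09 to 0.648 ± 0.121 CPM. Among the rises beside Il1rn were Il18r1, a receptor of interleukin-18, from 0 to 27.8 ± 1.24 CPM, and Il2rg, the common gamma chain of interleukin receptors, from 0 to 31.7 ± 0.272 CPM.

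Among metabolic classes, a rise was seen in serine and one-carbon metabolism, the pathway that turns glucose carbon into serine, glycine and the folate-bound units used for nucleotides. Of its 19 genes, counted with asparagine synthetase, 17 rose (16 beyond 2-fold) and 2 fell, and the median log2 change was 2.74. Phgdh, the first enzyme of serine synthesis, was at 61.6, 56.8 and 60.5 CPM in LM1 and 146, 148 and 151 CPM in the libraries labelled knockout, and Psph, the last, rose from 12 ± 1.01 to 132 ± 1.56 CPM. The mitochondrial folate enzymes rose more, Shmt2 from 26.2 ± 1.94 to 431 ± 12.7 CPM (16.4-fold). Mthfd2 rose from 8.73 ± 0.475 to 158 ± 0.949 CPM (18.1-fold). Aldh1l2 rose from 8.47 ± 1.09 to 258 ± 1.87 CPM (30.4-fold). Amt, a part of the glycine cleavage system, fell from 11.8 ± 0.385 to 0.489 ± 0.171 CPM. In all of these the groups did not overlap.

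Several of these enzymes are known targets of ATF4, the factor of the integrated stress response. Of the ATF4 and stress response targets, 18 of 23 rose (15 beyond 2-fold) and 4 fell (2 beyond 2-fold), with a median of 1.27. Atf4 itself rose from 222 ± 4.86 to 745 ± 4.25 CPM. Asns, asparagine synthetase, rose from 34.3 ± 1.76 to 266 ± 6.04 CPM. Chac1, a glutathione-degrading enzyme, rose from 9.02 ± 0.442 to 139.9 ± 3.51 CPM. Trib3, a pseudokinase, rose from 59.7 ± 3.28 to 144 ± 3.68 CPM. Ddit4, an inhibitor of mTORC1 (312 ± 21 to 52.8 ± 0.638 CPM), and Cebpb (238 ± 25.2 to 35.9 ± 0.592 CPM) fell, and Slc7a11, the cystine transporter, fell slightly from 91 ± 6.39 to 69.8 ± 2.78 CPM, which was not called in the fit of all 12 libraries. Aminoacyl-tRNA synthetases, which charge tRNAs for translation, leaned the same way. Of these, 29 of 39 rose (19 beyond 2-fold) and 9 fell (3 beyond 2-fold), with a median of 0.98. Nars, for asparagine, rose from 97.3 ± 3.96 to 695 ± 4.92 CPM. Wars, for tryptophan, rose from 23.8 ± 1.67 to 186 ± 1.28 CPM, while Qars, for glutamine, fell from 239 ± 2.32 to 84.5 ± 1.75 CPM.

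The parts of the protein-making and protein-folding machinery moved in different directions. Cytosolic ribosomal protein genes fell. Of these, 6 of 80 rose (2 beyond 2-fold) and 70 fell (46 beyond 2-fold), and the median log2 change was -1.13. Their summed level was 27420.0 to 29777 CPM in LM1 and 14246 to 14631 CPM in the libraries labelled knockout. Rps27 fell from 177 ± 11.6 to 36.2 ± 0.963 CPM. Among the few that rose was Rpl8, from 1049 ± 72.4 to 1266 ± 27.1 CPM, though not in the fit of all 12 libraries. Most of these genes have processed pseudogenes, and since the treatment of reads with several matches is not stated, their absolute levels are uncertain. Mitochondrial ribosomal proteins rose instead (61 of 78 rose and 11 fell, median 0.71), for example Mrps2 from 10.5 ± 0.35 to 58.8 ± 0.636 CPM. Mrpl54 rose from 7.59 ± 0.332 to 67.9 ± 1.25 CPM. Proteasome genes also rose (37 of 46 rose and 6 fell, median 0.89), led by Psme3, a regulator cap, from 24.4 ± 0.806 to 202 ± 2.03 CPM. Psmc5, an ATPase of the base, rose from 29.6 ± 0.953 to 209 ± 4.41 CPM. Psmb9, a subunit of the immunoproteasome, was the largest of the falls.

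Chaperones of the cytosol and those of the endoplasmic reticulum parted. Of the cytosolic heat shock chaperones, 24 of 28 rose (9 beyond 2-fold) and 4 fell (1 beyond 2-fold), with a median of 0.77. Cryab, a small heat shock protein, was at 6.73, 6.32 and 5.98 CPM in LM1 and 987, 983 and 997 CPM in the libraries labelled knockout, 156-fold higher. Hsph1 rose from 78.4 ± 3.97 to 529 ± 5.56 CPM. Hspb8 rose from 116 ± 3.54 to 721 ± 8.07 CPM, while Hspa8, the constitutive Hsp70, fell from 2331 ± 30.5 to 1445 ± 11 CPM. Of the unfolded protein response and endoplasmic reticulum chaperones, 6 of 26 rose (2 beyond 2-fold) and 17 fell (9 beyond 2-fold), with a median of -0.77. Minus the median of all genes it was -0.86, and -0.54 among genes with a mean of at least 5 CPM. Hspa5 (BiP), the main chaperone there and 1 of the 10 genes with most reads in LM1, fell from 6507 ± 177 to 1377 ± 10.6 CPM (4.73-fold). Hsp90b1 fell from 2636 ± 125 to 1336 ± 23.8 CPM. The stress factor Xbp1 fell from 255 ± 12.4 to 60.1 ± 1.23 CPM. Dnajb11, a partner of BiP, rose from 38 ± 1.09 to 142 ± 2.3 CPM. In the same compartment Ero1lb, the relative of Ero1l, fell from 41.6 ± 1.81 to 5.2 ± 0.434 CPM. Qsox1, another disulfide-forming oxidase, fell from 512 ± 21.9 to 83.1 ± 0.79 CPM. The isomerase Pdia3 fell from 1211 ± 52.3 to 573 ± 4.14 CPM, but P4hb, the most read isomerase, rose from 1455 ± 16 to 1988 ± 6.74 CPM. Of the list of disulfide isomerases and oxidases, 6 of 20 rose and 12 fell.

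**Figure D3:**
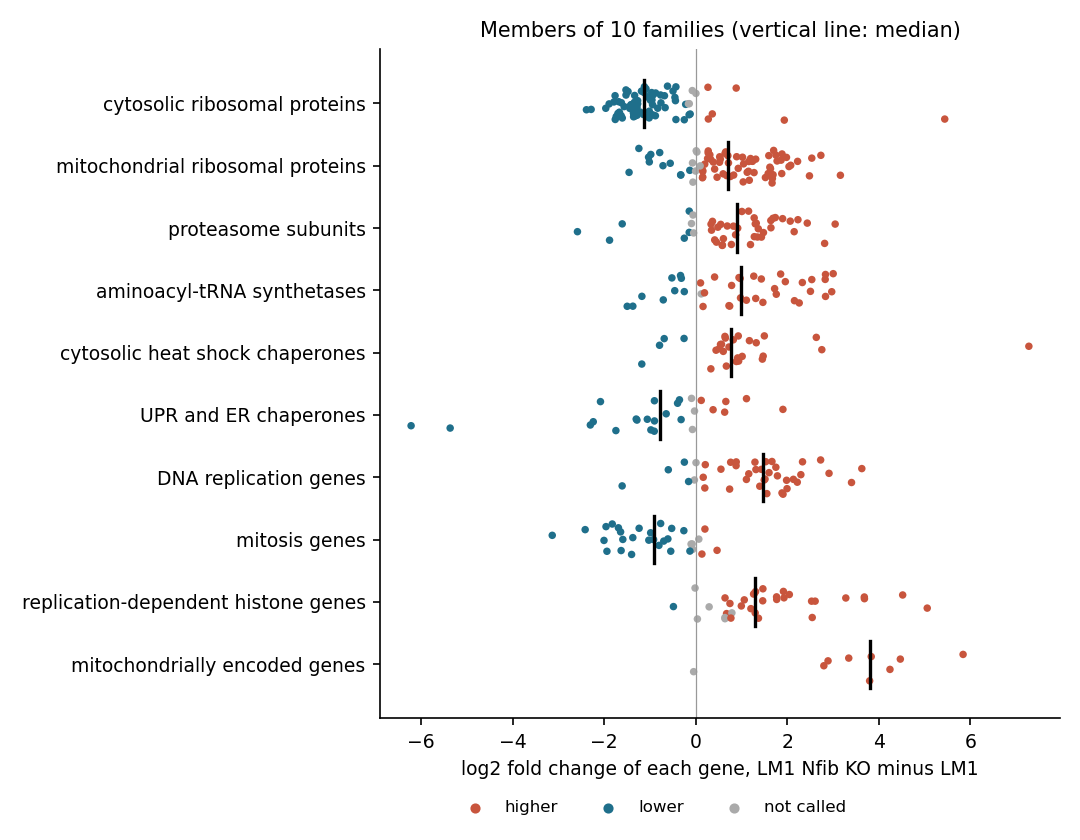
Log2 fold change, knockout label minus LM1 (x axis), of every tested member of 10 gene families (y axis), coloured by call, with the family median as a black line. Cytosolic ribosomal proteins, endoplasmic reticulum chaperones and mitosis genes had their median to the left of 0, and mitochondrial ribosomal proteins, proteasome, tRNA synthetases, cytosolic chaperones, DNA replication, histones and mitochondrially encoded genes to the right, with single members on the other side in most families.

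Genes of the S phase and of mitosis moved in opposite directions. Of 40 DNA replication genes, 34 rose (26 beyond 2-fold) and 4 fell, with a median of 1.47. Pcna, the sliding clamp, was at 52.3, 55.3 and 54.8 CPM in LM1 and 184, 182 and 181 CPM in the libraries labelled knockout. Mcm2, a subunit of the replicative helicase, rose from 70.8 ± 2.91 to 202 ± 4.38 CPM. Fen1, a flap nuclease, rose from 9.1 ± 0.997 to 112 ± 2.85 CPM, and Tyms, thymidylate synthase, from 4.91 ± 0.559 to 51.8 ± 0.893 CPM. Lig1, the ligase of lagging strands, fell from 52.2 ± 1.86 to 17.1 ± 0.634 CPM. Of 31 mitosis genes, 3 rose, none beyond 2-fold, and 24 fell (14 beyond 2-fold), with a median of -0.92. Top2a, the topoisomerase of condensing chromosomes, fell from 1629 ± 87.9 to 405 ± 7.06 CPM. Cenpf, a kinetochore protein, fell from 219.6 ± 14.9 to 41 ± 1.29 CPM. Cenpa, the centromeric histone, fell from 229.6 ± 8.24 to 26.1 ± 1.31 CPM. Ccnb1, mitotic cyclin B, fell from 84.5 ± 4.92 to 48.4 ± 1.18 CPM. Mki67, the Ki-67 antigen, fell from 276 ± 24.4 to 162 ± 1.08 CPM. Replication-dependent histone genes, whose mRNAs lack a poly-A tail and are only partly caught by poly-A selection, rose in 27 of 34 cases.

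Inhibitors and activators of the G1 phase went both ways. Of the cyclin-dependent kinase inhibitors and the RB family, 6 of 15 rose (5 beyond 2-fold) and 8 fell (4 beyond 2-fold). Cdkn2a, which encodes INK4A and ARF, had 0 counts in all LM1 libraries and 1654, 1612 and 1652 counts in the libraries labelled knockout (43.5 ± 1.05 CPM, at least 393-fold higher). Its neighbour Cdkn2b (INK4B) had 1, 0 and 0 counts in LM1 and stood at 17.9 ± 0.913 CPM. Both lie in a stretch of 5 neighbouring tested genes on chr4:89274471-89694772 (mm10) that had at most 3 counts in every LM1 library, the others being Gm12609, Gm12610 and Dmrta1. These others were low in the libraries labelled knockout as well, at 0.345 ± 0.0294, 0.391 ± 0.0707 and 0.715 ± 0.155 CPM. Mtap, which lies next to Cdkn2a on the other side, was read strongly in both groups and fell from 450.0 ± 18.1 to 245 ± 2.38 CPM. In the 3 LM9 libraries Cdkn2a had 2, 0 and 0 counts, and in those labelled LM9 Nfib KO it had 1422, 1632 and 1479. Other inhibitors fell, Cdkn1b (p27) from 252 ± 8.33 to 21 ± 1.16 CPM. Cdkn2c fell from 139 ± 3.3 to 42.4 ± 1.44 CPM. Cdkn2d fell from 117 ± 7.02 to 12.2 ± 0.967 CPM, and Cdkn1a (p21) rose slightly from 75.8 ± 3.72 to 82.2 ± 2.32 CPM, a call that was lost without LM1 replicate 2 or 3, without knockout-labelled replicate 1 and in the fit of all 12 libraries. Of the D cyclins, Ccnd1 rose from 313 ± 5.0 to 734 ± 0.819 CPM. Ccnd2 rose from 0.701 ± 0.0855 to 153 ± 3.52 CPM. Ccnd3, named after its values were seen, fell from 109 ± 3.94 to 86.8 ± 2.51 CPM. Trp53 rose from 23.2 ± 1.61 to 126 ± 2.23 CPM, and its targets as a list did not lean (14 of 29 rose and 14 fell, median 0.10), with Perp (1.27 ± 0.16 to 191 ± 4.9 CPM), Aen (7.04 ± 0.687 to 75.1 ± 1.46 CPM) and Mdm2 (63.9 ± 1.5 to 148 ± 0.888 CPM) rising and Ddb2 (20.9 ± 1.23 to 1.3 ± 0.223 CPM) and Trp53inp1 (71.2 ± 7.66 to 3.56 ± 0.698 CPM) falling.

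**Figure D4:**
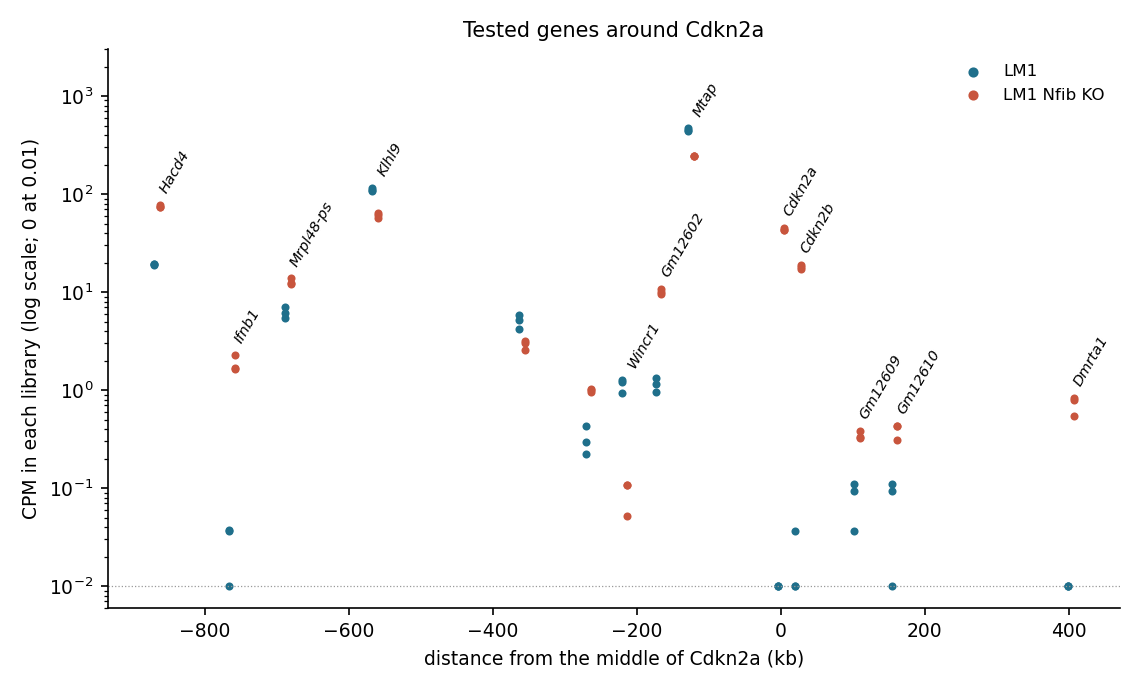
CPM in each library (y axis, log scale, with 0 drawn at 0.01) of the tested genes around Cdkn2a, against the distance of each gene from the middle of Cdkn2a in kb (x axis), LM1 in blue and the libraries labelled knockout in red; the 2 genes without a label are long noncoding RNAs. Cdkn2a, Cdkn2b and Dmrta1 sat at or next to the bottom edge in LM1, while Mtap and Klhl9 were read above 50 CPM in both groups.

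Mitochondrial transcripts rose unevenly. Of 9 protein genes of the mitochondrial genome in the files, 8 rose, all beyond 2-fold, with a median log2 change of 3.80. mt-Cytb, a subunit of complex III, was at 108, 122 and 119.5 CPM in LM1 and 2652, 2657 and 2440.1 CPM in the libraries labelled knockout. mt-Nd1, of complex I, rose from 133.9 ± 14.2 to 2539 ± 195 CPM and mt-Nd5 from 156 ± 20.2 to 1083 ± 95 CPM. mt-Co1, of complex IV, did not pass, at 3545 ± 291 and 3429 ± 155 CPM, and its log2 change ran from -0.12 without LM1 replicate 1, where it was called lower, to 0.17 with library totals. The ribosomal RNAs of the same genome rose less, mt-Rnr1 from 169.7 ± 13.4 to 267 ± 12 CPM and mt-Rnr2 from 253 ± 19 to 770.3 ± 49.5 CPM, the first without a call in the fit of all 12 libraries. The nuclear genome holds copies of mitochondrial sequence, so the split of these reads is uncertain. Nuclear subunits of the respiratory chain had medians of 0.18 for complex I and 0.34 for complexes III and IV and ATP synthase, beside 0.09 for all genes.

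Carbon metabolism changed gene by gene. Of the glycolysis enzymes, 8 of 22 rose (1 beyond 2-fold) and 13 fell (11 beyond 2-fold). Ldhb, a lactate dehydrogenase chain, had no count in the libraries labelled knockout after 6.94 ± 0.81 CPM, Aldoc fell from 228 ± 1.22 to 2.43 ± 0.196 CPM. Eno2 fell from 291 ± 5.94 to 27.1 ± 1.73 CPM, whereas Hk1, the first step, rose from 258 ± 6.74 to 455 ± 3.71 CPM. Slc16a3, which exports lactate, rose from 0.0362 ± 0.0627 to 84.8 ± 2.99 CPM. Gapdh was at 15.4 ± 0.492 and 7.19 ± 0.456 CPM, low values for a gene that cells express strongly and that has many pseudogenes. In the pentose phosphate pathway, the oxidative enzymes G6pdx (88.3 ± 2.92 to 478 ± 7.67 CPM) and Pgd (96 ± 1.94 to 370.2 ± 1.24 CPM) rose and Tkt, transketolase, fell from 1023 ± 50.3 to 104 ± 3.54 CPM. Of the TCA cycle and pyruvate dehydrogenase genes, 20 of 31 rose (11 beyond 2-fold) and 11 fell (5 beyond 2-fold), with a median of 0.37. Pcx, pyruvate carboxylase, rose from 3.59 ± 0.591 to 109 ± 2.42 CPM (30.5-fold), while the isocitrate dehydrogenases Idh1 (162 ± 9.25 to 20.2 ± 1.42 CPM) and Idh2 (136 ± 4.53 to 33.4 ± 0.893 CPM) fell. Of the cholesterol genes, 11 of 24 rose and 13 fell, among them Insig1, which holds back cholesterol synthesis (219.9 ± 4.51 to 24.2 ± 0.576 CPM), with a fall and Hsd17b7 (5.74 ± 0.382 to 60.5 ± 1.45 CPM) with a rise.

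Redox and metal genes included large changes in both directions. Hmox1, the haem-degrading oxygenase, was at 27, 24.4 and 27.8 CPM in LM1 and 1202, 1183 and 1211 CPM in the libraries labelled knockout, 45.4-fold higher. Nqo1 rose from 30.4 ± 0.554 to 215 ± 4.52 CPM. Gclm, of glutathione synthesis, rose from 141 ± 1.18 to 283 ± 7.77 CPM, but Gsta4 fell from 45.1 ± 2.29 to 0.0532 ± 0.0271 CPM. Mgst1 fell from 129 ± 3.47 to 1.15 ± 0.191 CPM, and the list of NRF2 and glutathione genes as a whole did not lean (19 of 38 rose and 18 fell, median 0.08). Ferritin chains fell, Fth1 from 7753 ± 247 to 3106 ± 28.9 CPM. Ftl1 fell from 4718 ± 254 to 1335 ± 28.1 CPM. Tfrc, the transferrin receptor, rose from 41.7 ± 1.94 to 213 ± 12.4 CPM. Cp, ceruloplasmin, a copper-bearing ferroxidase, fell from 1947 ± 108 to 1.59 ± 0.098 CPM. The metallothioneins Mt1 and Mt2 rose from 162 ± 9.57 to 519 ± 17.2 CPM and 42.2 ± 2.2 to 441 ± 18.3 CPM.

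More transport genes rose than fell. Of the Slc transporters, 128 of 222 rose (105 beyond 2-fold) and 82 fell (51 beyond 2-fold), with a median of 0.73. Slc6a17 had the largest rise, followed by Slc16a3, Slco3a1 (0.0241 ± 0.0418 to 70.6 ± 0.965 CPM) and Slc16a9 (0.0474 ± 0.0571 to 91.3 ± 0.806 CPM), and Slc39a8, a zinc and manganese importer, appeared at 26.7 ± 0.859 CPM after 0 counts. Of the aquaporins, 5 of 7 rose and 2 fell. Aqp5 also rose from 42.7 ± 1.53 to 749.6 ± 9.98 CPM (17.6-fold), and Aqp1 rose slightly from 248 ± 7.75 to 305 ± 3.54 CPM, a call lost in the fit of all 12 libraries. Aqp3, which also passes glycerol, fell from 7.42 ± 0.397 to 0.928 ± 0.0463 CPM. Of the ion channels, 38 of 63 rose and 24 fell, with a median of 1.97, or 1.88 with members at or under 3 counts set to their bound. That median minus the one of all genes was 1.89, and 0.75 above 5 CPM. The rises included Trpc6 (0.0362 ± 0.0627 to 38.1 ± 0.647 CPM) and Cacna2d1 (0 to 24.2 ± 1.25 CPM). Of 36 ABC transporters 25 rose, among them Abcb1a, the multidrug exporter (from 3.81 ± 0.444 to 67.9 ± 1.69 CPM), and Abcc3 fell from 59.1 ± 0.925 to 3.47 ± 0.226 CPM. V-ATPase subunits, which acidify lysosomes, rose in 16 of 20 cases (median 0.71), for example Atp6v0a2 from 12.7 ± 0.225 to 183 ± 2.78 CPM. Atp6v1h rose from 51.8 ± 1.18 to 207 ± 3.34 CPM. Lysosomal enzymes did not follow as a list (16 of 42 rose and 23 fell, median -0.16). Npc2, which binds cholesterol, fell from 2214 ± 42 to 320.4 ± 2.73 CPM. Ctsl, a cysteine protease, fell from 5545 ± 143 to 2334 ± 29.6 CPM.

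Of signalling pathways, the Wnt genes included 12 with at most 3 counts in every LM1 library. Of 45 ligands, receptors and regulators, 25 rose and 17 fell, with a median of 1.32. Minus the median of all genes it was 1.24, and 0.06 among genes with a mean of at least 5 CPM. Axin2, a feedback inhibitor that is itself a target of the pathway, was at 0.145, 0.0944 and 0.0739 CPM in LM1 and 291, 284 and 293 CPM in the libraries labelled knockout. Nkd2, another inhibitor, rose from 0.0606 ± 0.0752 to 135 ± 0.464 CPM and Dkk2 from 0 to 23.5 ± 0.433 CPM, whereas the secreted antagonist Sfrp1 fell from 95.5 ± 3.72 to 0.239 ± 0.0727 CPM and the co-receptor Lrp5 from 307 ± 17.8 to 42.5 ± 0.755 CPM. Of the Notch genes, 6 of 16 rose (1 beyond 2-fold) and 9 fell (9 beyond 2-fold), with a median of -1.19. The receptor Notch1 fell from 294 ± 24.5 to 13.8 ± 0.701 CPM, the ligands Jag1 and Jag2 from 106 ± 1.51 to 23.1 ± 1.03 CPM and 42.6 ± 3.94 to 0.0806 ± 0.0941 CPM. The target Hes1 fell from 35.8 ± 1.0 to 14.4 ± 0.712 CPM, while Notch2 and Notch3 rose, from 237 ± 16.1 to 298 ± 6.04 CPM and 35.7 ± 1.92 to 63 ± 0.367 CPM, both calls being lost in the fit of all 12 libraries. Eph receptors and ephrins were mostly lower (3 of 16 rose and 12 fell, median -1.12), with Efnb1 (21 ± 2.64 to 47.5 ± 0.204 CPM) and Ephb6 (4.13 ± 0.144 to 20.9 ± 1.03 CPM) among the rises. Minus the median of all genes, their median was -1.21, and -0.8 among genes with a mean of at least 5 CPM.

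Receptors for the growth factors in the medium were read in both groups. Egfr was at 14.3 ± 0.529 and 14.7 ± 0.796 CPM without a call under TMM factors and was called higher by 0.25 under library totals, and Fgfr1 fell slightly from 283 ± 8.14 to 245 ± 1.45 CPM with TMM factors but not with library totals, where its log2 change was 0.01. Fgfr2 fell from 133 ± 8.73 to 5.98 ± 0.434 CPM. Igf1r, the receptor for insulin-like growth factors, fell from 201 ± 13.4 to 13.8 ± 0.552 CPM. Lrig1, an inhibitor of EGF receptors, fell from 625 ± 11.9 to 94.7 ± 2.7 CPM. The feedback genes of the ERK pathway, which rise when it is active, split. Dusp6, a phosphatase of ERK, fell from 176 ± 2.41 to 6.34 ± 0.26 CPM. Spry1, a receptor kinase inhibitor, fell from 46.7 ± 1.79 to 5.0 ± 0.38 CPM. Etv1, an Ets factor, fell from 61.7 ± 5.38 to 0.177 ± 0.0569 CPM, while Egr1, an immediate early factor, rose from 3.53 ± 0.364 to 53.1 ± 1.74 CPM. Fosl1, an AP-1 subunit, rose from 28.2 ± 2.46 to 267 ± 5.15 CPM. Etv4 rose from 32.4 ± 2.29 to 94 ± 3.61 CPM. Binding proteins of insulin-like growth factors changed in opposite directions. Igfbp4 fell from 2318 ± 95.1 to 307 ± 8.37 CPM. Igfbp2 rose from 0.319 ± 0.0938 to 561 ± 16.6 CPM. Of 20 genes in the list of YAP and TEAD targets 14 fell (median -0.95), among them Ankrd1 (67.8 ± 2.35 to 4.5 ± 0.194 CPM) and Tead2, itself a TEAD factor (156 ± 10.7 to 3.72 ± 0.327 CPM). In the Myc network, Txnip, a glucose-responsive inhibitor of thioredoxin and 1 of the 10 genes with most reads in LM1, was at 5469, 5757 and 5507 CPM in LM1 and 35.4, 33.9 and 33.2 CPM in the libraries labelled knockout. The Myc antagonists Mxi1 (122 ± 1.73 to 20.6 ± 0.743 CPM) and Mxd1 (31.3 ± 1.31 to 5.85 ± 0.596 CPM) fell too, and Myc fell from 114 ± 7.0 to 82.4 ± 1.98 CPM, a call lost in the fit of all 12 libraries.

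Hox genes, which pattern the body axis, went by cluster when they were split after their values were seen. All 10 tested Hoxa genes fell, and all 9 others rose, 1 of Hoxb, 4 of Hoxc and 4 of Hoxd. Of the 19 genes, 8 were at or under 3 counts in every LM1 library and 2 in every library labelled knockout. Those genes could be tested only through the other group, which fixed their direction. On chromosome 2, Hoxd8 rose from 0.0105 ± 0.0182 to 31 ± 1.83 CPM and Hoxd3, Hoxd4 and Hoxd10 rose from at most 1 count per library to 1.4 ± 0.339, 0.829 ± 0.157 and 1.54 ± 0.0657 CPM. On chromosome 6, Hoxa5 fell from 74.7 ± 2.71 to 1.46 ± 0.288 CPM. Hoxa3 fell from 17.3 ± 2.07 to 0.587 ± 0.178 CPM. Hoxa2 fell from 5.71 ± 0.297 to 0.0894 ± 0.0682 CPM. Of homeobox factors of the Pax, Lhx, Irx, Nkx and Sine oculis families, 11 of 16 rose (11 beyond 2-fold) and 5 fell (4 beyond 2-fold), with a median of 4.92, or 3.13 with members at or under 3 counts set to their bound. Minus the median of all genes it was 4.83, and 0.37 among genes with a mean of at least 5 CPM. Pax5, a B cell and midbrain factor, rose from 0.0574 ± 0.0184 to 44 ± 0.986 CPM, Pax3 from 0 to 10.3 ± 0.542 CPM and Irx5 from 0.0121 ± 0.0209 to 22.2 ± 0.587 CPM. Irx1 fell from 25.7 ± 2.61 to 0.176 ± 0.0831 CPM. Sox4 fell from 411 ± 7.07 to 32.9 ± 1.08 CPM. Sox9, a factor of progenitor cells, fell from 170.1 ± 7.0 to 45.8 ± 1.1 CPM. The Zfp zinc finger genes, taken as a family of regulators of no single tissue, had a median of 0.14, close to that of all genes.

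**Figure D5:**
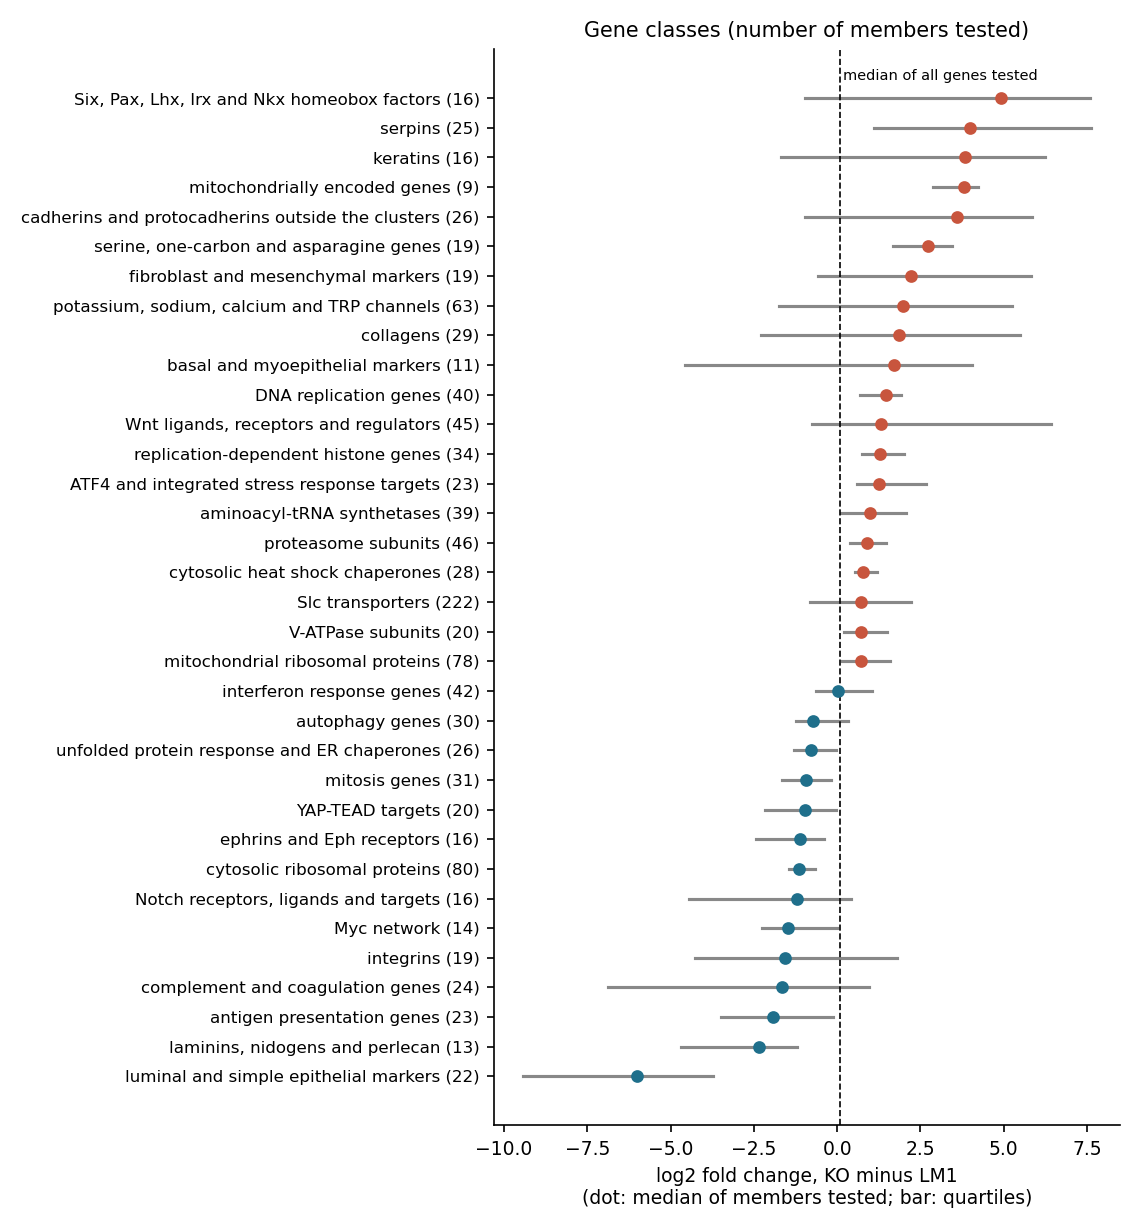
Median log2 fold change, knockout label minus LM1 (x axis, dots), and quartiles (bars) of the tested members of 34 gene classes (y axis, with the number tested). The dashed line is the median of all genes, 0.09, and classes above it are red and below it blue. Luminal markers lay farthest to the left at -6.01 and laminins stood at -2.35, while serine and one-carbon genes stood at 2.74 with quartiles well to the right of the line.

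Outside protein-coding genes, small nucleolar RNAs, most of which guide the modification of ribosomal RNA and lie in introns of host genes, fell in 47 of 55 cases, with a median log2 change of -2.38, and rose in 2. This class was looked at after its values were seen. Gas5, a host of several, fell from 152 ± 10.4 to 34 ± 1.84 CPM. Zfas1, another host, fell from 277 ± 17 to 49.5 ± 1.31 CPM. The counts of these RNAs were low, since Snora65, the highest of them in LM1, was at 4.98 ± 0.379 CPM. Some overlap a host in the annotation, as Snora65 does Rpl12, while Snord93 and Snord104 overlap no gene in the files. Rnu3b3 is entered under more than 1 identifier at the same place. Among longer noncoding classes, 215 of 401 lincRNAs rose and 144 fell (median 0.86), and 171 of 289 antisense RNAs rose and 83 fell (median 1.41), where reads of the sense gene can enter if strand was not used in counting.

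Along the genome the changes were not spread evenly. The median log2 change was between 0.55 and 0.58 on chromosomes 5, 10, 15, 19 and X, and was -0.37 on chromosome 1 and -0.30 on chromosome 9. On chromosome 5, 657 of 1122 tested genes (58.6%) rose and 363 (32.4%) fell, while on chromosome 1 it was 400 of 1087 (36.8%) against 582 (53.5%). Genes read in 1 group only also came in runs, which were looked for after the values were seen. Runs of at least 3 neighbouring tested genes at or under 3 counts in every LM1 library and called higher numbered 32. They held 119 of the 1204 such genes. These genes could be tested only through the libraries labelled knockout, and some were low there too, such as Col4a3 at 0.344 ± 0.0456 CPM. Entries that overlap in the annotation, such as Hoxd3 and Hoxd4, count apart. The longest run, of 9 genes on chr3:92750148-93075505, held late cornified envelope genes from Lce1g to Lce3f and Crct1. The next, of 7 genes on chr13:33149275-33496004, was the Serpinb9 cluster, and others held Hoxd genes on chromosome 2, Kit and Kdr on chromosome 5 and Krt6a with its neighbours on chromosome 15. In the other direction there were 6 runs, with 20 of the 418 genes read in LM1 only. Among them were 4 genes of the Cd300 family of myeloid receptors on chr11:115010335-115048409, the highest of which, Cd300ld4, had been at 2.31 ± 0.10 CPM in LM1.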

How the data were processed

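Sequencing reads had been aligned by the authors with STAR to mm10 and summed per gene with QuasR, and the deposited counts are whole numbers per Ensembl gene, 1 column per library. For the RNA-seq counts, the versions of these tools, the treatment of reads with several matches and the use of strand in counting are not given in the sources used here. Gene symbols were taken from the reference annotation of the same build. Only the 6 LM1 and LM1 Nfib KO libraries entered the fit, with groups from the labels. Genes were kept with filterByExpr (edgeR 4.0.16, at least 10 counts), scaled with TMM and tested with limma-voom (limma 3.58.1, R 4.3.3, offset 0.5), two-sided, with Benjamini-Hochberg adjustment over all genes and a threshold of 0.05. The code was tested on simulated data. Alternatives were edgeR's quasi-likelihood test, DESeq2 1.42.0, other scalings and filters, quality weights, a replicate block, all 12 libraries and leaving out each library.

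The comparison, the gene lists and the rule for named genes were chosen with earlier results of these data known. The rule took the first members of each list, the largest changes within each list above 5 CPM and the 12 largest rises and falls above 50 CPM among protein-coding genes. Some genes that this rule picks are not reported here. Replicate numbers did not pair the libraries, since deviations from the group means of libraries with the same number correlated at -0.0168, 0.021 and -0.0005.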

Additional observations from a re-analysis of the deposited data

How the results depend on the processing

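Among 15 alternative fits the number of genes called ran from 11056 (genes with a mean of at least 5 CPM, 5630 higher and 5426 lower) to 16166 (no count filter), beside 15585 as reported, and edgeR called 15621 and DESeq2 15252. With an absolute log2 fold change above 1 as well, 9572 genes were called, 5194 higher and 4378 lower. Library totals in place of TMM factors called 15679, and raised the share of higher calls from 52.6% to 58.4%. Leaving out 1 library gave 15562 to 15778 calls, 8186 to 8309 of them higher and 7362 to 7497 lower. A replicate block on the shared numbers left 15529 genes called, 15491 of them shared with the reported calls, and no call of a named gene changed. The fit of all 12 libraries called 14759 genes, and the calls of Aqp1, Cdkn1a, Krt13, Myc, Notch2, Notch3, Rpl8, Slc7a11 and mt-Rnr1 were lost in it. In the fits other than the 5 CPM filter, 13790 genes were called in the reported direction throughout.

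The log2 difference of Nfib, 0.12, was called at 0.34 with library totals and at 0.13 above 5 CPM, and ran from 0.04 to 0.18 when 1 library was left out. The sign turned for Fgfr1 with library totals (0.01), for Egfr without 1 library (-0.00 to 0.09), and for mt-Co1 with library totals (0.17) and without 1 library (-0.12 to 0.00). Above 5 CPM, the median of a list minus that of all genes turned for keratins (-7.28), basal markers (-3.49), p53 targets (-0.08), Zfp genes (-0.09) and interferon response genes (0.02), where fewer members are tested. With the same filter it moved by over 1.5 times for Wnt genes (1.24 to 0.06), homeobox factors (4.83 to 0.37), channels (1.89 to 0.75), collagens (1.78 to 0.78), fibroblast markers (2.15 to 1.34), glycolysis enzymes (-0.97 to -0.42), histone genes (1.22 to 0.38), cadherins outside the clusters (3.52 to 6.02), aquaporins (2.01 to 4.12), unfolded protein response genes (-0.86 to -0.54), ephrins and Eph receptors (-1.21 to -0.8) and interleukins (-0.47 to -0.03). For interleukins it ran from -0.8 to -0.27 without 1 library, and for ABC transporters it went from 0.53 to 0.88 with no count filter. It also turned without 1 library for p53 targets (-0.07 to 0.05) and for NRF2 and glutathione genes (-0.06 to 0.03), and for the latter with no count filter (0.00). Depth limits values under 0.111 CPM, which are at most 3 counts in the shallowest library. All p-values rest on 3 libraries a group.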
